A study of Mus musculus with 22 samples.

Results

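Ribosome-bound RNA of astrocytes in the crushed spinal cord was compared between mice whose astrocytes carry or lack STAT3, the transcription factor that relays many injury cytokines to the nucleus. The comparison rests on 7 of the 22 libraries of the series. Labels alone chose them: hemagglutinin (HA) immunoprecipitates (IP) of injured STAT3 knockout cord (STAT3-CKO SCI, animals 186, 531 and 270, n = 3) and of injured wild-type cord (WT SCI, animals 9935, 9874, 9843 and 9596, n = 4). All were young adult female mice that carried mGFAP-Cre and RiboTag, an allele that adds HA to a ribosomal protein wherever Cre has acted. The STAT3-CKO animals carried STAT3-LoxP in addition, so both groups share the Cre and the tag and differ by the floxed gene. Injury was a severe crush at thoracic level 10, and the central 3 mm of the lesion was taken at 14 days. Each library came from 1 animal, so every spread below is between animals. Any cell in which the mouse Gfap promoter was active could be tagged, astrocyte or not. HA IP libraries of uninjured WT cord (mGFAP-Cre and RiboTag, n = 4) give the level before injury. The unbound flow-through of the same 7 injured cords gives the RNA left after the pull-down. Uninjured cord without STAT3 was not analysed here. The comparison asks what astrocytes around a lesion translate differently when STAT3 is missing.

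STAT3 acts downstream of gp130, the receptor chain shared by interleukin 6, leukaemia inhibitory factor, ciliary neurotrophic factor and oncostatin M. The bound receptor activates JAK kinases, which phosphorylate STAT3, and phosphorylated STAT3 pairs up, enters the nucleus and binds DNA of the form TTCNNNGAA. Among its known targets is Socs3, whose product shuts the receptor down. In injured spinal cord, astrocyte STAT3 is known for its part in hypertrophy, in the rise of the filament protein GFAP and in the formation of the scar border around inflamed tissue. Interferon gamma, a cytokine of lymphocytes, is known to induce GTPases that attack intracellular pathogens as well as genes of antigen presentation.

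The 7 libraries held 31292491 to 46055612 counts, but most of these fell on Rn45s, the ribosomal RNA precursor. It took 96.2%, 93.6%, 93.9% and 89.0% of counts in WT SCI and 89.2%, 79.96% and 52.2% in STAT3-CKO SCI, in the order of animals above, which is kept for all values below, WT SCI always first. The means were 93.2 ± 3.00% (SD, n = 4) and 73.8 ± 19.3% (n = 3). The shares of STAT3-CKO animal 186 and WT SCI animal 9596 overlapped (two-sided exact permutation p = 0.114, where the smallest p the design allows is 0.0571). Outside Rn45s, Lars2 and Mir6236 each WT SCI library held 620265 to 2691494 counts and each STAT3-CKO SCI library 2496641 to 17348247, which limits low genes most in WT SCI. The part of this share in the differences below was tested only as a covariate. Levels (CPM) are counts scaled to library sizes adjusted by the trimmed mean of M values (TMM), so they are relative, and differences between groups are log2 with the standard error (SE). A gene was called where edgeR's quasi-likelihood test gave a Benjamini-Hochberg adjusted p under 0.05 over all genes tested. Astrocyte markers were present in every one of the 7 libraries: the glutamate transporter Slc1a2 at 454 to 929 CPM, the water channel Aqp4 at 219.5 to 644 CPM. So was RNA of other cells: summed microglia and macrophage markers reached 788 to 2757 CPM in WT SCI and 1129 to 1646 CPM in STAT3-CKO SCI, and myelin genes 6092 to 8699 and 3672 to 4357 CPM. In bulk RNA, fewer cells of a type and less RNA per cell cannot be told apart.

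In STAT3-CKO SCI, 7 of 13 pan-reactive, 5 of 20 acute phase and protease inhibitor and 5 of 14 S100 and annexin genes were called lower. Called higher were 8 of 16 interferon-gamma-induced GTPases, 3 of 9 MHC class II genes and 2 of 7 proteoglycan core proteins, neurocan and brevican. Lists can share members, so their counts are not independent. Timp1, Serpina3n and Lcn2 are counted in the pan-reactive list and again in the acute phase list. Of 14764 genes, 171 were called (1.16%): 88 were higher (0.596%) and 83 lower (0.562%) in STAT3-CKO SCI. At an unadjusted p under 0.05 there were 1343 higher (9.1%) and 1079 lower (7.31%) genes. All 3 STAT3-CKO animals lay above all 4 WT SCI animals for 904 genes (6.12%) and below them for 453 (3.07%), 1357 in all (9.19%). The median difference over all genes tested was 0.03. In the authors' deposited table, 712 of 18813 genes have a false discovery rate under 0.05 for this contrast, 407 higher and 305 lower. Of the 171 calls, 29 (11 higher, 18 lower) held with each of the 7 animals left out in turn. A fit of only the 7 injured libraries called 36 genes (11 higher, 25 lower), all among the 171. There, 5 pan-reactive genes, 4 acute phase genes and 1 S100 or annexin gene were lower. Higher were 5 GTPases, 2 MHC class II genes and 1 proteoglycan core protein. The fit without STAT3-CKO animal 531 gave 39 calls, that without animal 270 gave 57 and that without animal 186 gave 91, of which 39, 56 and 76 were among the 171. The fits without WT SCI animal 9596 and animal 9935 gave 343 and 295 calls. With the log-odds of the Rn45s share as a covariate, 7 genes were called: Timp1, Hspb1 and Serpina3n lower and Elovl2, Bcan, Gpr56 and Zfp81 higher (the last 2 named because the count is small). The other calls named below did not pass with that covariate, that of Stat3 itself included (−2.15 against −2.17 without it). With the covariate the medians were 2.51 for the GTPases against 2.38 without it, 2.49 for MHC class II genes against 2.48, and −3.17 for pan-reactive genes against −2.79. Some other medians moved more. They were −1.16 against −0.0004 for type I interferon response genes, −0.78 against 0.24 for complement genes and −2.10 against −0.95 for acute phase genes. Those of proteoglycan core proteins (0.76 against 1.20) and of S100 and annexin genes (−0.66 against −1.12) came closer to no difference.

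The targeted gene was lower. Stat3 (chromosome 11, 100885098 to 100939540, minus strand, GRCm38) stood at 66.1, 56.2, 26.3 and 34.97 CPM in WT SCI and 7.85, 10.1 and 12.3 CPM in STAT3-CKO SCI, with no overlap and a difference of −2.17 ± 0.34, adjusted p = 0.00331. Uninjured WT cord held 13.8 ± 1.41 CPM of Stat3 (SD, n = 4). WT SCI lay above that level (1.73 ± 0.30, adjusted p = 0.000373), and STAT3-CKO SCI was not called against it (−0.44 ± 0.32, adjusted p = 0.452). Counts are summed over all exons and the floxed exons are not named, so the remaining counts cannot be read as intact transcript. Stat5b, which mediates growth hormone and prolactin signals, did not pass (−1.79 ± 0.46, adjusted p = 0.0644), although its WT SCI levels of 21.5, 12.6, 7.67 and 6.51 CPM lay above all 3 STAT3-CKO levels of 4.34, 2.71 and 3.27 CPM. Of the 6 STAT genes tested, edgeR called Stat3 alone with all 11 libraries. DESeq2 called 2, Stat3 and Stat5b, as did edgeR with thinned libraries and without WT SCI animal 9843 or 9596.

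Among the receptors, Il6st, which encodes gp130, stood at 28.7, 41.4, 36.6 and 28.3 CPM in WT SCI and 61.2, 60.6 and 46.5 CPM in STAT3-CKO SCI (0.73 ± 0.26, adjusted p = 0.168). Lifr, its partner for leukaemia inhibitory factor, was at 26.7, 23.3, 12.9 and 20.7 against 36.4, 36.8 and 27.7 CPM (0.69 ± 0.31, adjusted p = 0.279). Osmr, the oncostatin M receptor, was at 0, 1.36, 4.18 and 5.897 against 0.981, 0.214 and 1.17 CPM (−1.92 ± 0.88, adjusted p = 0.285). None of these 3 passed. Cntfr, the subunit that binds ciliary neurotrophic factor, was the 1 called member of 10 receptor and JAK kinase genes tested. Its levels were 8.47, 12.7, 14.6 and 9.74 CPM in WT SCI and 27.2, 24.6 and 30.7 CPM in STAT3-CKO SCI, a difference of 1.27 ± 0.27, adjusted p = 0.0257, against 51.2 ± 4.28 CPM (SD, n = 4) in uninjured cord. Of 9 gp130 ligands, 6 were tested, and edgeR called 0 (1 at an unadjusted p under 0.05, 0 by DESeq2). Their summed level was 1.23 to 20.7 CPM in WT SCI and 1.96 to 7.36 CPM in STAT3-CKO SCI, close to the counting limit.

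Of 20 tested STAT3 feedback and target genes, 3 were lower and 0 higher (median −0.67). Socs3, the feedback inhibitor of gp130 (chromosome 11, 117966079 to 117970047, minus strand), stood at 4.56, 1.697, 3.84 and 3.98 CPM in WT SCI and 0.14, 0.214 and 0.225 CPM in STAT3-CKO SCI (−4.12 ± 0.83, adjusted p = 0.0201; 109 against 36 counts over the groups). Cebpd, a transcription factor of the acute phase response, was at 38.5, 20.1, 9.94 and 15.8 against 0.701, 3.43 and 1.29 CPM (−3.50 ± 0.57, adjusted p = 0.0041). Sbno2, a corepressor induced by interleukin 10 and interleukin 6, was at 22.5, 26.7, 10.8 and 28.3 against 8.34, 2.73 and 3.16 CPM (−2.25 ± 0.47, adjusted p = 0.0244). For all 3, every WT SCI animal lay above every STAT3-CKO animal. The other 17 members ranged from −2.72 (Junb) to 3.75 (Cish), and neither end passed. Leaving out each of the 7 animals in turn kept the calls of Stat3 and Cebpd. The calls of Cntfr and Socs3 were lost without animal 186, and those of Cntfr, Socs3 and Sbno2 without animal 270 or 531. The call of Socs3 was also lost when libraries were thinned to equal depth.

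The 250 bases before the start sites show which of these genes carry the letters of a STAT site close by. TTCNNNGAA, which reads the same on both strands, lay in the RefSeq promoters (GRCm38.p6) of 3 of 66 genes called lower that matched the promoter table (4.55%), of 5 of 58 called higher (8.62%) and of 821 of 11624 tested genes (7.06%). Those 3 lower genes were Tgm1, a transglutaminase, Socs3 and Sbno2. Their sequences are shown because they are the only ones of the lower genes in which the letters occur at this distance, with the matches in capitals.
Tgm1, chr14:55713493-55713742, minus strand: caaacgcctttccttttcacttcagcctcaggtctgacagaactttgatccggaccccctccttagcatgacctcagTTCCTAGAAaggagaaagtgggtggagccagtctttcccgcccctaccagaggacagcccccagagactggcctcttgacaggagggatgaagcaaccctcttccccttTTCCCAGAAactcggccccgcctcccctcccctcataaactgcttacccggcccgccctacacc
Socs3, chr11:117969367-117969616, minus strand: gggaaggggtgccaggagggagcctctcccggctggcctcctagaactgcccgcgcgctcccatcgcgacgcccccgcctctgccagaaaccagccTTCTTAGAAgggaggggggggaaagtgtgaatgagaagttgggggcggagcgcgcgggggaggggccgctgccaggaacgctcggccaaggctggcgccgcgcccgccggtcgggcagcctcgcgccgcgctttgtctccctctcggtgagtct
Sbno2, chr10:80101188-80101437, minus strand: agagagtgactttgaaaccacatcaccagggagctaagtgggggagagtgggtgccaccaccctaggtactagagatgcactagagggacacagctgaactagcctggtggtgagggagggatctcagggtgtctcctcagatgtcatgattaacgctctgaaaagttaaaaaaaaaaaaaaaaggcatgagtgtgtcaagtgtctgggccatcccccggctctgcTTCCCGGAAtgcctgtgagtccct
Matches began 173 and 64 bases before the start of Tgm1, 154 before Socs3 and 24 before the start of Sbno2 that is shown. Of the 3 listed starts of Sbno2, 2 had a match. Tgm1 (chromosome 14, 55700009 to 55713926, minus strand) had 1 of the largest falls: 4.89, 42.5, 9.59 and 9.53 CPM in WT SCI and 0, 0.456 and 0.0605 CPM in STAT3-CKO SCI (−6.53 ± 0.99, adjusted p = 0.00264), a call that held with each of the 7 animals left out. In the list of STAT3 feedback and target genes, 5 of 16 matched promoters held the letters (31.2%). A match describes the sequence and does not show binding, and the windows of Timp1, Hspb1, Serpina3n and Gfap hold no match.

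**Figure D1:**
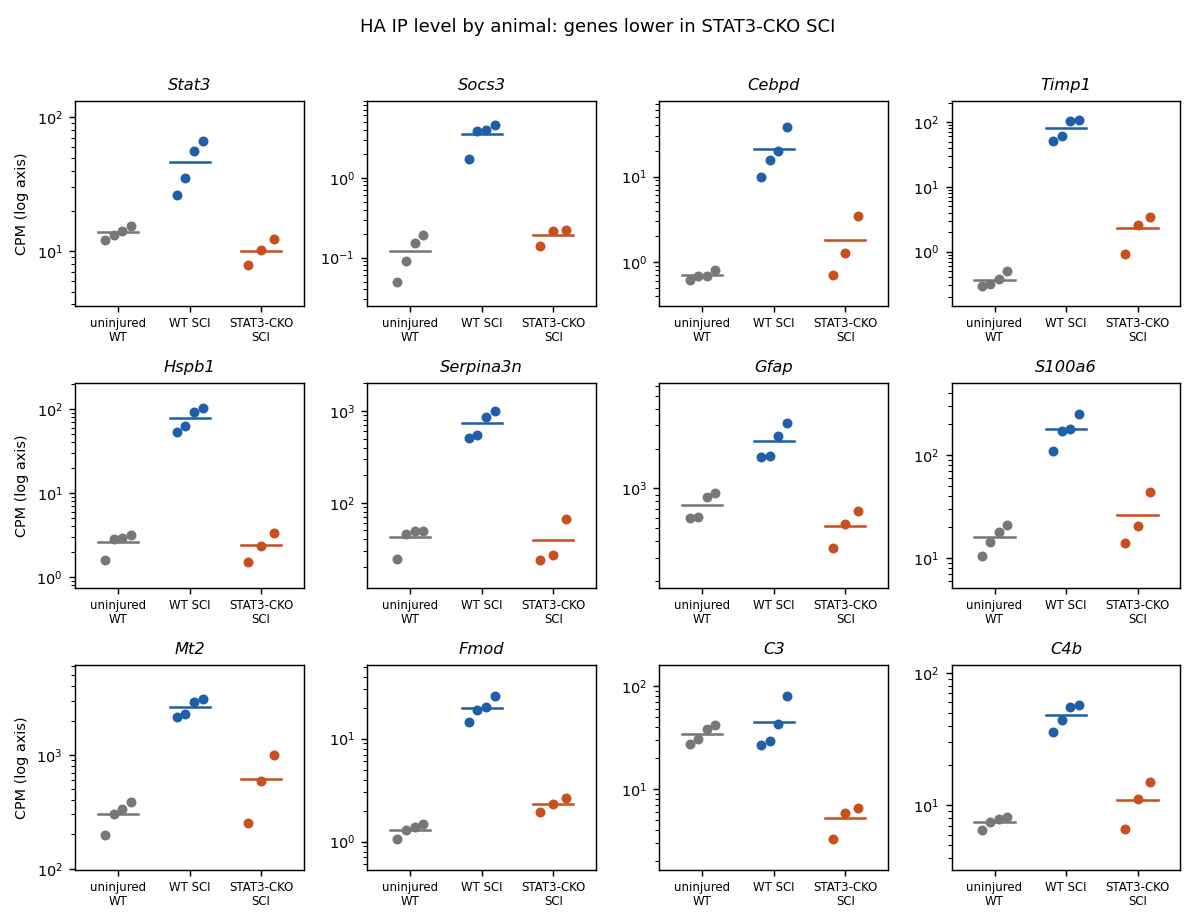
HA IP levels of 12 genes in TMM-scaled CPM on a log axis. Each point is 1 animal of uninjured WT, WT SCI or STAT3-CKO SCI cord, and each line is the group mean. In all 12 panels the 3 STAT3-CKO SCI animals lie below the 4 WT SCI animals, and for C3 they also lie below the 4 uninjured animals.

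Pan-reactive genes, a set known to rise in astrocytes after several kinds of injury, had 7 of 13 members lower and 0 higher, with a median of −2.79 (4 lower without animal 531). Of 12 A1 genes, a set known from inflamed astrocytes, 2 were higher (Iigp1 and H2-D1) and 1 lower (C3), with a median of 0.42, and of 10 A2 genes, known from ischaemic astrocytes, 0 were higher and 2 lower (Tgm1 and Ptx3), with a median of −0.29. Without animal 531 or 270 the A1 list had 1 higher, and without animal 186, 531 or 270 the A2 list had 1 lower. The summed level of the pan-reactive genes was 2635 to 4019 CPM in WT SCI, 575 to 808 in STAT3-CKO SCI and 658 to 1007 in uninjured cord. Timp1, an inhibitor of matrix metalloproteinases, stood at 105, 106, 61.7 and 50.9 CPM in WT SCI and 2.59, 3.43 and 0.934 CPM in STAT3-CKO SCI, with 0.371 ± 0.0902 CPM in uninjured cord. It was thus 35.5-fold lower (−5.15 ± 0.48, adjusted p = 1.15e-05) and still above uninjured (2.61 ± 0.40, adjusted p = 0.000204). Hspb1 (chromosome 5, 135887919 to 135889563, plus strand), a small heat shock protein that binds filaments, stood at 91.9, 102, 52.5 and 62.9 against 3.36, 1.501 and 2.33 CPM (−5.03 ± 0.42, adjusted p = 3.76e-06). Against 2.63 ± 0.71 CPM in uninjured cord, the STAT3-CKO level differed by −0.16 ± 0.35 (adjusted p = 0.836). Serpina3n (chromosome 12, 104406729 to 104414329, plus strand), a secreted serine protease inhibitor whose family members are near-identical and may share reads, stood at 555, 865, 512 and 1015 against 66.4, 23.8 and 26.9 CPM (−4.24 ± 0.43, adjusted p = 3.12e-05). Its STAT3-CKO level differed from uninjured by −0.11 ± 0.36 (adjusted p = 0.892).

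Gfap, the intermediate filament by which reactive astrocytes are stained, stood at 3146, 2506, 1774 and 1738 CPM in WT SCI and 536, 674 and 356 CPM in STAT3-CKO SCI (−2.13 ± 0.32, adjusted p = 0.00247). The STAT3-CKO mean of 522 ± 159 CPM (SD, n = 3) differed from the uninjured 746 ± 169 CPM (n = 4) by −0.51 ± 0.30 (adjusted p = 0.337). Vim, its partner filament, was at 91.9, 161, 173 and 163 against 70.7, 62.3 and 81.9 CPM, which did not pass (−1.04 ± 0.28, adjusted p = 0.0731) although the groups did not overlap. In contrast to Gfap, Vim in STAT3-CKO SCI stood above its uninjured 15.7 ± 3.296 CPM, by 2.19 ± 0.27 (adjusted p = 2.04e-05). Tagln2, an actin-binding protein, was the other called member of 20 filament and cytoskeletal genes (−1.45 ± 0.29, adjusted p = 0.0209). All 20 had a negative difference, with a median of −0.71, and the 18 not called ranged from −2.40 (Des) to −0.20 (Tpm1). Cd44, a hyaluronan receptor of the pan-reactive list, was at 7.82, 10.6, 11.7 and 17.6 against 4.77, 7.27 and 12.6 CPM and overlapped between groups (−0.55 ± 0.39, adjusted p = 0.502).

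Of 20 acute phase and protease inhibitor genes, 5 were lower and 0 higher (median −0.95). Besides Timp1 and Serpina3n these were A2m, Lcn2 and Ptx3. A2m, a plasma-type inhibitor of many proteases, stood at 118, 88.5, 55.6 and 103 CPM in WT SCI and 22.004, 15.4 and 24.4 CPM in STAT3-CKO SCI (−2.14 ± 0.31, adjusted p = 0.00182). Lcn2, a secreted carrier of siderophores, stood at 2.61, 18.4, 3.49 and 6.93 against 0, 0 and 0.259 CPM (−6.03 ± 1.26, adjusted p = 0.024). Both were separated between groups, and Lcn2 was nearly absent without STAT3. Ptx3, a pentraxin that binds complement, stood at 0.326, 26.5, 0.872 and 31.5 against 0.14, 0.536 and 0.32 CPM (−5.43 ± 1.10, adjusted p = 0.0214), so that it was high in animals 9874 and 9596 only and the groups overlapped. S1pr3, a receptor for sphingosine 1-phosphate, fell by 3.68 on the log2 scale (adjusted p = 0.0201). Aspg, an asparaginase, was lower as well (−6.53 ± 1.4, adjusted p = 0.0259), at 5.87, 0.566, 0 and 7.82 CPM in WT SCI, 0, 0 and 0.0692 in STAT3-CKO SCI and 0.725 ± 0.339 in uninjured cord. Leaving out each of the 7 animals in turn kept the calls of Timp1, Hspb1, Serpina3n, Gfap and A2m. The calls of Lcn2, Ptx3 and Aspg were lost without animal 186, those of Tagln2, Ptx3, S1pr3 and Aspg without animal 270, those of Tagln2, Lcn2, Ptx3, S1pr3 and Aspg without animal 531, and those of Lcn2 and S1pr3 without animal 9874.

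Metallothioneins, the zinc and copper buffers, fell with this group. Mt1 stood at 4925, 4444, 2884 and 3197 CPM in WT SCI and 1317, 880.4 and 255 CPM in STAT3-CKO SCI (−2.24 ± 0.44, adjusted p = 0.0169), and Mt2 at 3094, 2925, 2155 and 2309.6 against 989, 595 and 253 CPM (−2.10 ± 0.38, adjusted p = 0.00992). These 2 genes are near copies, so reads may be shared between them. Within STAT3-CKO SCI both were highest in animal 186 and lowest in animal 270, whose Rn45s shares were 89.2% and 52.2%. Trf, which encodes the iron carrier transferrin, was the third called of 10 metallothionein and iron genes (−2.28 ± 0.55, adjusted p = 0.0466), with 104, 208, 921 and 173 CPM in WT SCI and 46.5, 85.6 and 84.5 CPM in STAT3-CKO SCI. Trf is also made by oligodendrocytes, and Mbp, a myelin protein gene, was lower in the same libraries, at 5785, 5353, 6884 and 3974 against 2145, 2509 and 2388 CPM (−1.23 ± 0.27, adjusted p = 0.0328). The part of myelin RNA in the difference of Trf was not tested. Gpx1, a glutathione peroxidase, was the 1 called of 22 glutathione and detoxification genes, at 173, 176, 115 and 122 against 48.1, 50.1 and 40.1 CPM (−1.67 ± 0.28, adjusted p = 0.0051). Leaving out animal 9843, 9596 or 186 gave 2 lower in that list, and leaving out animal 9874 or 9596 gave 1 higher.

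Of 14 S100 proteins and annexins, calcium-binding proteins of which several rise in reactive astrocytes, 5 were lower and 0 higher (median −1.12). S100a6 stood at 177, 248, 108 and 171 CPM in WT SCI and 43.4, 20.4 and 13.9 CPM in STAT3-CKO SCI (−2.77 ± 0.40, adjusted p = 0.00182), with 15.9 ± 4.54 CPM in uninjured cord. S100a13 (−1.74 ± 0.36, adjusted p = 0.0242), S100a16 (−1.64 ± 0.36, adjusted p = 0.0296), Anxa7 (−1.63 ± 0.38, adjusted p = 0.0402) and S100b (−1.12 ± 0.27, adjusted p = 0.0474) were the other 4. S100b is a marker of astrocytes as well, and its levels were 921, 704, 833 and 667 CPM in WT SCI and 389, 427 and 260.0 CPM in STAT3-CKO SCI. Of 13 small heat shock and chaperone genes, Hspb6 was lower beside Hspb1 (−1.70 ± 0.39, adjusted p = 0.0366). Leaving out each of the 7 animals in turn kept the calls of Gpx1 and S100a6. The calls of Trf, Mbp, S100b and Anxa7 were lost without animal 186, those of Trf, Mbp, S100a13, S100a16, S100b, Anxa7 and Hspb6 without animal 270, those of Mt1, Mt2, Trf, Mbp, S100a13, S100a16, S100b, Anxa7 and Hspb6 without animal 531, those of Trf and S100b without animal 9843, those of S100a16, S100b, Anxa7 and Hspb6 without animal 9874, and that of S100b without animal 9935.

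Complement gene C3 (chromosome 17, 57203970 to 57228136, minus strand), which encodes the central protein of the cascade, fell below its uninjured level. It stood at 26.4, 79.97, 42.2 and 29.2 CPM in WT SCI, 3.29, 5.87 and 6.45 CPM in STAT3-CKO SCI and 34.4 ± 6.44 CPM in uninjured cord. The difference between injured groups was −3.08 ± 0.41, adjusted p = 0.000676. That of STAT3-CKO SCI from uninjured was −2.71 ± 0.40 (adjusted p = 0.000122), whereas WT SCI differed from uninjured by 0.38 ± 0.33 (adjusted p = 0.422). Chil1, a secreted chitinase-like protein, followed the same order, with 14.01, 25.5, 15.3 and 19.9 against 1.05, 5.23 and 3.83 CPM and 17.6 ± 3.46 CPM in uninjured cord (−2.45 ± 0.45, adjusted p = 0.0103; STAT3-CKO SCI minus uninjured −2.36 ± 0.44, adjusted p = 0.0013). Fxyd1, a regulator of the sodium pump in astrocyte endfeet, stood at 64.5, 155, 69.4 and 103 against 13.2, 26.3 and 20.4 CPM (−2.29 ± 0.36, adjusted p = 0.00284) against 52.4 ± 12.3 CPM in uninjured cord. C4b was the other called complement gene of 14, at 35.5, 57.6, 54.9 and 43.7 against 6.59, 11.2 and 15.1 CPM (−2.12 ± 0.33, adjusted p = 0.00277). Unlike C3, C4b in STAT3-CKO SCI overlapped with its uninjured 7.52 ± 0.713 CPM (STAT3-CKO SCI minus uninjured 0.55 ± 0.30, adjusted p = 0.304). The 12 complement genes not called ranged from −2.04 (Cfb) to 2.85 (C2). The comparisons with uninjured cord share libraries with the genotype comparison and also differ by injury and by the Rn45s share.

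Among the 20 lower genes of largest size that were at least moderately abundant, some belonged to none of the groups above. Fmod, a collagen-binding proteoglycan that carries keratan sulfate, was at 14.3, 26.02, 19.01 and 20.5 CPM in WT SCI and 2.31, 2.65 and 1.94 CPM in STAT3-CKO SCI (−3.12 ± 0.40, adjusted p = 0.0006). Igfbp7, a secreted binding protein for insulin-like growth factors, was at 43.7, 129.6, 30.3 and 25.7 against 3.57, 7.35 and 6.43 CPM (−3.30 ± 0.51, adjusted p = 0.00277). Mylk, the myosin light chain kinase, was at 53.1, 14.5, 43.2 and 45.9 against 6.097, 6.22 and 3.55 CPM (−2.89 ± 0.44, adjusted p = 0.0025). In each, all 3 STAT3-CKO animals lay below all 4 WT SCI animals. Nudt6 (−2.27 ± 0.49), the scaffold protein gene Ahnak (−2.25 ± 0.44), Sel1l3 (−2.53 ± 0.50) and Fbxw9 (−3.75 ± 0.82) were of like size with adjusted p of 0.0259, 0.0162, 0.0173 and 0.0296. WT SCI animal 9596 held 134 CPM of Fbxw9 against 8.02 to 15.6 in the other 3. Leaving out each of the 7 animals in turn kept the calls of C3, Fxyd1, C4b, Fmod, Igfbp7 and Mylk. The calls of Nudt6, Ahnak and Fbxw9 were lost without animal 186, those of Chil1, Nudt6, Ahnak, Sel1l3 and Fbxw9 without animal 270, those of Ahnak, Sel1l3 and Fbxw9 without animal 531, that of Fbxw9 without animal 9596, and that of Nudt6 without animal 9874.

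**Figure D2:**
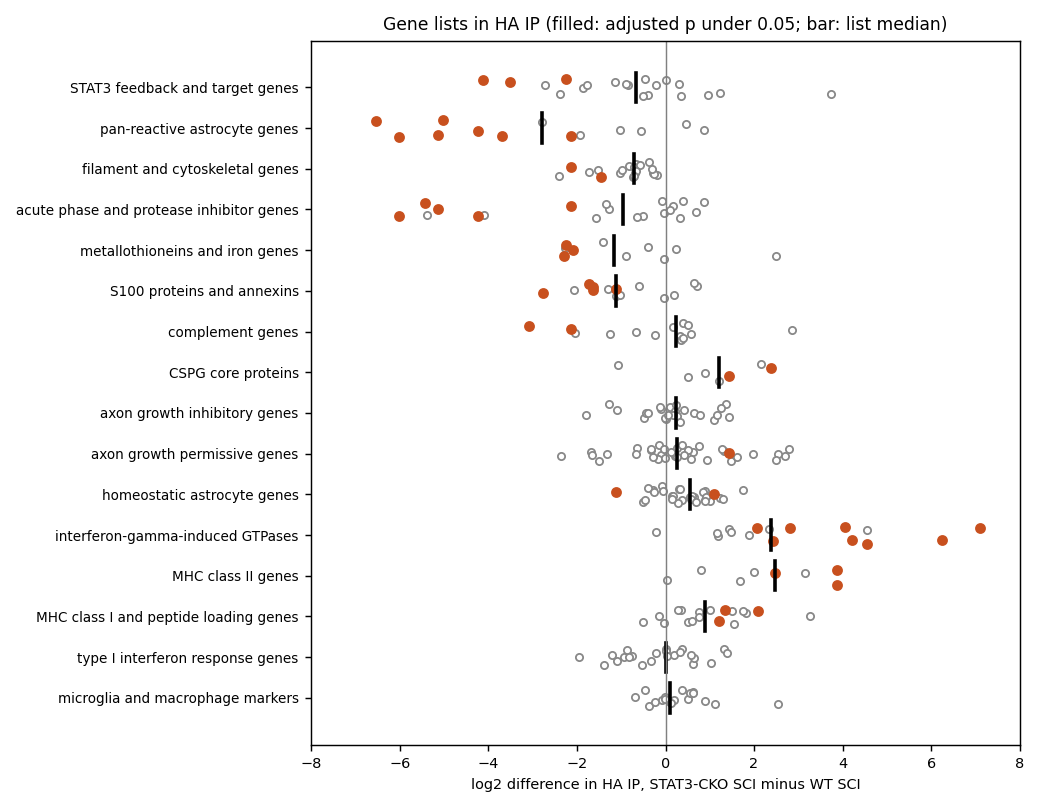
Log2 differences in HA IP, STAT3-CKO SCI minus WT SCI, of the tested members of 16 gene lists. Each point is 1 gene, filled where the adjusted p is under 0.05, and the black bar is the median of the list; 3 members with 0 counts in 1 group are left out of the points. Calls lie on the left for reactive, acute phase and S100 genes and on the right for proteoglycans, interferon-gamma-induced GTPases and MHC genes.

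Neurocan and brevican, the proteoglycans of the perineuronal matrix that limit axon growth, were higher without STAT3. Ncan stood at 15.3, 42.6, 27.2 and 28.05 CPM in WT SCI and 102, 200.1 and 141 CPM in STAT3-CKO SCI (2.38 ± 0.32, adjusted p = 0.00086). Its uninjured level was 63.5 ± 11.97 CPM. WT SCI lay below uninjured (−1.15 ± 0.30, adjusted p = 0.00776) and STAT3-CKO SCI lay above it (1.22 ± 0.31, adjusted p = 0.0158). Uninjured libraries also differ in Rn45s share, at 12.6% to 26.7% of counts. Bcan was at 92.9, 72.7, 39.1 and 75.1 against 263, 194 and 109 CPM (1.43 ± 0.31, adjusted p = 0.0306). They were the 2 called of 7 chondroitin sulfate proteoglycan core proteins, whose median was 1.20. Acan, aggrecan, was low at 0, 0.113, 0.697 and 0.48 against 2.03, 1.07 and 1.63 CPM and did not pass (2.16 ± 0.84, adjusted p = 0.206). Vcan, versican (0.89 ± 0.37, adjusted p = 0.242), and Cspg4, also known as NG2 (0.50 ± 0.33, adjusted p = 0.456), did not pass either. Cspg5, neuroglycan C, pointed the other way at 47.2, 68.7, 41.3 and 38.6 against 33.1, 17.3 and 19.5 CPM without passing (−1.07 ± 0.31, adjusted p = 0.1). The summed level of the 7 was 173 to 284 CPM in WT SCI, 468 to 523 in STAT3-CKO SCI and 231 to 271 in uninjured cord.

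The enzymes that build the sugar chains on these core proteins gave no calls: 0 of 20 chondroitin and dermatan sulfate synthesis genes were called (edgeR, 3 higher and 3 lower at an unadjusted p under 0.05, 1 higher and 1 lower by DESeq2). Of 28 axon growth inhibitory genes 0 were called (edgeR, 5 higher and 1 lower at an unadjusted p under 0.05, 3 higher and 0 lower by DESeq2), with a median of 0.23, or 0.20 with the 2 members at 0 counts in WT SCI set to their bound. Without WT SCI animal 9596 the first list had 1 called higher and 1 lower and the second 1 higher, and without animal 9843 the first had 1 lower. Of 36 axon growth permissive genes, 1 was called, Sparcl1, which encodes the synapse-promoting matrix protein hevin. Sparcl1 stood at 432, 369, 236 and 288 CPM in WT SCI and 825, 1102 and 754 CPM in STAT3-CKO SCI (1.43 ± 0.26, adjusted p = 0.00956), against 1290.2 ± 46.5 CPM in uninjured cord.

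Levels of some genes called higher are given here beside those of uninjured cord. This comparison shares the WT SCI libraries with the genotype comparison, so the values are set side by side only. Against uninjured cord, 1607 genes were lower (10.9%) and 2331 higher (15.8%) in WT SCI, and 307 lower (2.08%) and 1137 higher (7.7%) in STAT3-CKO SCI. Elovl2 (chromosome 13, 41182381 to 41220405, minus strand), an elongase of very long polyunsaturated fatty acids, stood at 3.58, 7.13, 6.103 and 3.703 CPM in WT SCI, 31.1, 33.9 and 23.2 CPM in STAT3-CKO SCI and 28.4 ± 2.99 CPM in uninjured cord. It was 5.68-fold higher than in WT SCI (2.51 ± 0.32, adjusted p = 0.0006) and differed from uninjured by 0.05 ± 0.30 (adjusted p = 0.947). Gabra2, a subunit of the GABA-A receptor, stood at 9.78, 4.86, 2.62 and 2.81 against 20.7, 25.3 and 27.8 CPM (2.38 ± 0.41, adjusted p = 0.0061), with 34.6 ± 11.3 CPM in uninjured cord. For both genes the STAT3-CKO animals all lay above the WT SCI animals. Of 31 homeostatic astrocyte genes 1 was called higher and 1, S100b, lower, while the median of the list was 0.55. Without WT SCI animal 9935 the list had 8 called higher and 0 lower, without animal 9874 it had 2 and 0, and without STAT3-CKO animal 531 it had 0 and 0. Gja1, the main gap junction gene, was at 66.5, 37.2, 42.5 and 30.1 against 92.1, 67.4 and 83.1 CPM (0.88 ± 0.28, adjusted p = 0.121). The glutamate transporter Slc1a3 was at 5.54, 19.7, 14.6 and 8.43 against 21.2, 27.96 and 37.1 CPM (1.23 ± 0.35, adjusted p = 0.0886). Like Aqp4 (0.88 ± 0.26, adjusted p = 0.107) and Slc1a2 (0.55 ± 0.39, adjusted p = 0.495), both were separated between groups and did not pass. Of the 31 genes, 23 had a positive and 8 a negative difference. The STAT3-CKO animals were separated above WT SCI for 8 of the 31 and below for 1, against 6.12% and 3.07% of all genes. The 29 not called ranged from −0.52 (Aldh1l1) to 1.75 (Gabrg1). DESeq2 called 5 homeostatic genes higher and 1 lower.

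The other large rises among moderately abundant genes included the Notch effector Heyl (2.81 ± 0.54, adjusted p = 0.0151), the matrix protein Egfl6 (2.88 ± 0.55, adjusted p = 0.0151) and the agrin receptor Lrp4 (2.54 ± 0.47, adjusted p = 0.0115). Heyl stood at 1.303, 0.452, 0.349 and 2.95 CPM in WT SCI and 12.1, 11.6 and 5.44 CPM in STAT3-CKO SCI. Lrp4 stood at 5.87, 0.792, 4.88 and 2.33 against 20.5, 19.9 and 16.3 CPM, and Egfl6 at 3.58, 0.339, 0.523 and 2.26 against 14.9, 7.51 and 11.9 CPM. Uninjured means were 21.6 ± 5.51, 11.8 ± 1.22 and 15.03 ± 2.82 CPM, and WT SCI lay below them by log2 differences of −3.97 ± 0.54, −1.87 ± 0.44 and −3.27 ± 0.54. Ppargc1a, a coactivator of mitochondrial genes (2.02 ± 0.48), Eci1, a mitochondrial enzyme of fatty acid oxidation (2.39 ± 0.54), the teneurin Tenm4 (1.93 ± 0.38), the AMPA receptor accessory protein Shisa9 (2.21 ± 0.47) and Smyd1 (2.31 ± 0.48) were higher too. Of 22 cholesterol synthesis genes, 1 was called, the isomerase Idi1 (2.73 ± 0.62, adjusted p = 0.0364), at 0, 0.226, 0.523 and 0.206 CPM in WT SCI, 1.33, 2.23 and 1.45 CPM in STAT3-CKO SCI and 8.91 ± 1.09 CPM in uninjured cord. Of 21 Notch pathway and gliogenic factors 0 were called (edgeR, 4 higher and 0 lower at an unadjusted p under 0.05, 3 higher and 0 lower by DESeq2), as Heyl was not on that list. Without WT SCI animal 9935 or 9874 that list had 1 and 2 called higher. Leaving out each of the 7 animals in turn kept the calls of Ncan, Elovl2 and Gabra2, but that of Gabra2 was lost with only the 7 injured libraries. The calls of Bcan, Heyl, Egfl6, Ppargc1a, Tenm4 and Idi1 were lost without animal 186, those of Egfl6, Ppargc1a, Eci1, Shisa9, Smyd1 and Idi1 without animal 270, those of Bcan, Sparcl1, Heyl, Lrp4, Ppargc1a, Eci1, Tenm4, Shisa9, Smyd1 and Idi1 without animal 531, those of Eci1 and Idi1 without animal 9596, those of Bcan, Ppargc1a and Eci1 without animal 9843, and those of Eci1, Smyd1 and Idi1 without animal 9874. The calls of Eci1, Shisa9 and Idi1 were also lost when libraries were thinned to equal depth.

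**Figure D3:**
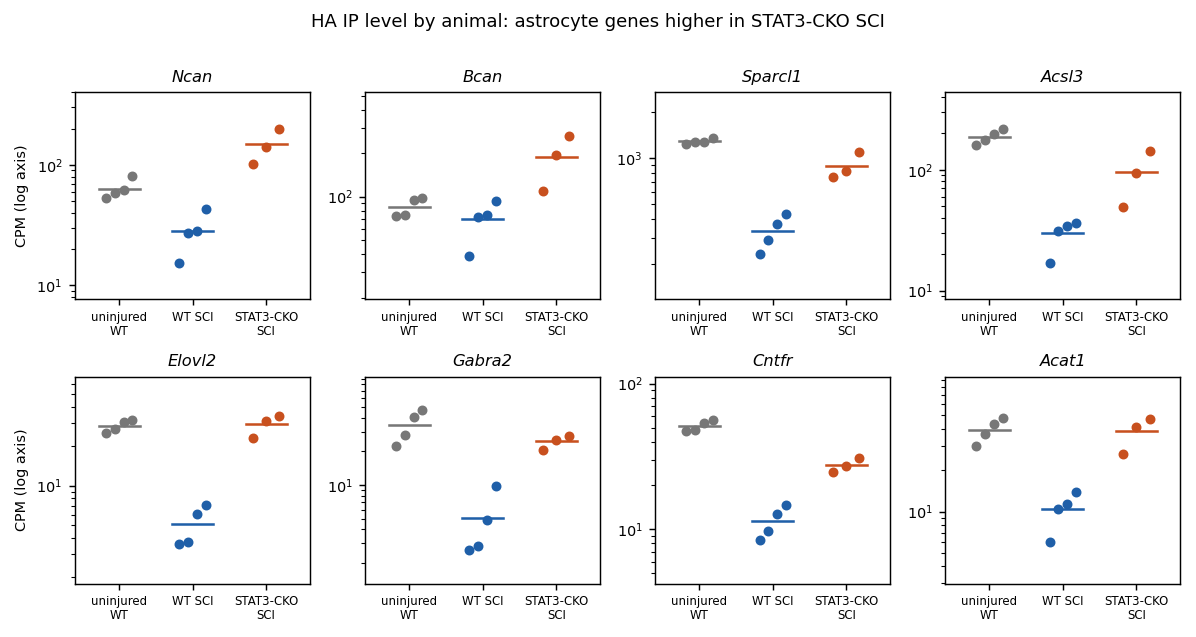
HA IP levels of 8 genes in TMM-scaled CPM on a log axis, with 1 point per animal and a line at the group mean. In each panel the 3 STAT3-CKO SCI animals lie above the 4 WT SCI animals, and in each but Bcan the WT SCI animals lie below the 4 uninjured ones.

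Interferon-gamma-induced GTPases were higher without STAT3: 8 of 16 were called higher and 0 lower, 15 of 16 had an unadjusted p under 0.05, and the median was 2.38 against 0.03 over all genes. Without animal 186 or 531, 5 were called, and without animal 270, 2. Their summed level was 241 to 454 CPM in STAT3-CKO SCI, against 47.95 to 98.9 CPM in WT SCI and 9.496 to 12.2 CPM in uninjured cord. Irgm2, an immunity-related GTPase (chromosome 11, 58199618 to 58222782, plus strand, an annotated span that overlaps Igtp, so that reads may be shared), stood at 2.93, 10.4, 6.28 and 5.49 CPM in WT SCI and 36.4, 46.01 and 52.4 CPM in STAT3-CKO SCI (2.81 ± 0.36, adjusted p = 0.0006). Iigp1, of the same family, stood at 3.26, 1.58, 0.872 and 2.47 against 33.01, 14.05 and 51.97 CPM (4.05 ± 0.59, adjusted p = 0.00188). Both were clearly separated between groups. Igtp, also known as Irgm3, stood at 44.6, 6.22, 4.71 and 4.73 against 70.2, 65.3 and 93.6 CPM (2.42 ± 0.59, adjusted p = 0.0487), with WT SCI animal 9935 far above the other 3. The guanylate-binding protein genes Gbp6 (1.96, 7.81, 4.01 and 8.98 against 18.99, 18.2 and 37.1 CPM, 2.07 ± 0.46, adjusted p = 0.031), Gbp10 (6.25 ± 1.05, adjusted p = 0.0051) and Gbp4 (4.56 ± 0.86, adjusted p = 0.0125) and the T-cell-specific GTPase Tgtp2 (4.21 ± 0.94, adjusted p = 0.0334) were called too. Gbp8 had 1 count in WT SCI and 952 in STAT3-CKO SCI, a ratio of 183 with a 95% counting interval of 32.9 to 7253. That interval covers counting noise only and leaves out the spread between animals. These genes lie in clusters of close copies, so reads may be split between them.

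Start sites of 3 of the 8 called GTPases (Irgm2, Igtp and Tgtp2) were in the promoter table, and all 3 carried a STAT site and an interferon response element side by side. The element was searched on both strands as GAAA, any 2 bases, then GAAA. The first 3 sequences show this arrangement, with both motifs in capitals, and the fourth is B2m, the class I light chain, which holds the interferon element alone.
Irgm2, chr11:58214727-58214976, plus strand: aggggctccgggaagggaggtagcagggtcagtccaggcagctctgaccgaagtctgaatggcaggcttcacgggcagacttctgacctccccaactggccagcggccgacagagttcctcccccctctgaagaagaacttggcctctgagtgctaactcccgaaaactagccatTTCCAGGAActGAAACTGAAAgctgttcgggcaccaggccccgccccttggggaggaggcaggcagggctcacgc
Igtp, chr11:58199306-58199555, plus strand: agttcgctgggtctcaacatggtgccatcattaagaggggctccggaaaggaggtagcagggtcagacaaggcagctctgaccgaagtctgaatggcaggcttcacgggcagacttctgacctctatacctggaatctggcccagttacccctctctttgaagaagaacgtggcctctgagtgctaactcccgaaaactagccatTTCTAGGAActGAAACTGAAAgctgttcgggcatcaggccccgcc
Tgtp2, chr11:49064213-49064462, minus strand: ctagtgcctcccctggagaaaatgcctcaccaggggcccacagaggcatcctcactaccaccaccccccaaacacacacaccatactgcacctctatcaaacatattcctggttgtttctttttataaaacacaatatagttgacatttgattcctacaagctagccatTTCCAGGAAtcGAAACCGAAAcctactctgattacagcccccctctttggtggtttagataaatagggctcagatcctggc
B2m, chr2:122147437-122147686, plus strand: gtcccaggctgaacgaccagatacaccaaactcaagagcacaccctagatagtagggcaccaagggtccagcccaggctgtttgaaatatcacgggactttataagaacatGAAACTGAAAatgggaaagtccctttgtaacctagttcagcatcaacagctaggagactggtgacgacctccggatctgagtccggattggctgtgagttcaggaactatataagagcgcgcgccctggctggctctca
In Irgm2, Igtp and Tgtp2, 2 bases separated TTCNNNGAA from the interferon element, which began 64, 34 and 70 bases before the start. In B2m the match began 139 bases before the start. The teneurin gene Tenm4, also called higher, held the interferon element 81 bases before 1 of its 2 listed starts and is not shown. Over the list of GTPases, the interferon element was found in 9 of 10 matched promoters and TTCNNNGAA in 6 of 10, and 6 held both, against 50 of 11624 tested genes (0.43%). Genes called higher held the interferon element in 6 of 58 promoters (10.3%), genes called lower in 4 of 66 (6.06%) and all genes tested in 359 of 11624 (3.09%). Type I interferon response genes held it in 7 of 15 (46.7%) and MHC class II genes in 0 of 6. The windows of Irgm2 and Igtp share long runs of bases, and that of Tgtp2 shares the bases just before its motifs with them. Promoters of such close copies are not independent examples, so the counts over the GTPases may rest on fewer separate sequences. These shares describe sequence and were not tested.

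Genes known mainly from the type I interferon response gave no calls. Of 23 tested, 0 were called (edgeR, 2 higher and 1 lower at an unadjusted p under 0.05, 0 higher and 0 lower by DESeq2), with a median at 0 to 2 decimals and summed levels of 152 to 451 CPM in WT SCI and 167 to 338 CPM in STAT3-CKO SCI. With the Rn45s covariate the median of this list was −1.16, again with 0 called. Ifi44, an interferon-induced protein of this list, stood at 1.303, 4.75, 4.53 and 1.99 against 5.82, 3.67 and 14.5 CPM and overlapped between groups (1.33 ± 0.59, adjusted p = 0.273). Ly6a, a surface protein also known as Sca-1 that interferons induce, was called at 2.28, 9.73, 0.872 and 1.03 against 22.4, 20.9 and 45.6 CPM (3.06 ± 0.65, adjusted p = 0.0253). Ly6 genes are close copies and may share reads. Of 7 interferon receptors and regulators 0 were called (edgeR, 0 higher and 1 lower at an unadjusted p under 0.05, 0 higher and 0 lower by DESeq2), with 1 lower when WT SCI animal 9596 was left out. A difference between these lists was not tested.

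Antigen presentation genes of both classes were among those called higher. Of 9 MHC class II genes 3 were called higher and 0 lower, with 5 higher when WT SCI animal 9874 was left out and a median of 2.48, or 2.38 with Ciita at its bound. Cd74, the invariant chain that guides class II molecules, stood at 3.91, 25.5, 12.9 and 6.65 CPM in WT SCI and 72.3, 269 and 203 CPM in STAT3-CKO SCI (3.86 ± 0.49, adjusted p = 0.0006). H2-Aa, a class II alpha chain, stood at 0.652, 5.09, 4.18 and 1.44 against 12.3, 61.8 and 55.2 CPM (3.88 ± 0.60, adjusted p = 0.00277), and H2-Ab1, its beta chain, at 3.26, 20.9, 4.88 and 4.18 against 30.5, 64.03 and 47.96 CPM (2.48 ± 0.51, adjusted p = 0.0237). Within STAT3-CKO SCI, all 3 were lowest in animal 186, and within WT SCI they were highest in animal 9874. H2-Eb1, a beta chain of the other class II molecule, had 1.303, 10.3, 1.57 and 2.13 against 12.3, 20.3 and 15.02 CPM and did not pass (2.00 ± 0.66, adjusted p = 0.139). Ciita, the transactivator of class II genes, had 0 counts in WT SCI and 81 in STAT3-CKO SCI, at least 5.203-fold higher against a floor of 3 counts over the group, and was not called (adjusted p = 0.2). Of 18 MHC class I and peptide loading genes 3 were called higher and 0 lower (median 0.88). B2m (chromosome 2, 122147686 to 122153083, plus strand) stood at 68.1, 142, 66.1 and 59.5 against 229.7, 288 and 561 CPM (2.10 ± 0.34, adjusted p = 0.00433), against 91.6 ± 18.6 CPM in uninjured cord. The class I heavy chains H2-D1 (43.3, 79.4, 47.1 and 40.4 against 119.7, 147 and 131 CPM, 1.33 ± 0.27, adjusted p = 0.0199) and H2-K1 (63.9, 85.1, 49.7 and 54.2 against 111, 171 and 153 CPM, 1.20 ± 0.26, adjusted p = 0.0262) were higher as well, and H2 genes may share reads. Leaving out each of the 7 animals in turn kept the calls of Irgm2, Iigp1, Cd74, H2-Aa and B2m. The calls of Igtp, Gbp6, Tgtp2 and Ly6a were lost without animal 186, those of Igtp, Gbp4, Gbp6, Gbp8, Gbp10, Tgtp2, Ly6a, H2-Ab1, H2-D1 and H2-K1 without animal 270, those of Igtp, Gbp6, Tgtp2, Ly6a, H2-Ab1, H2-D1 and H2-K1 without animal 531, that of Igtp without animal 9596 or 9874, and those of Igtp and Gbp6 without animal 9843. The call of Igtp was also lost with scaling by relative log expression (RLE).

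**Figure D4:**
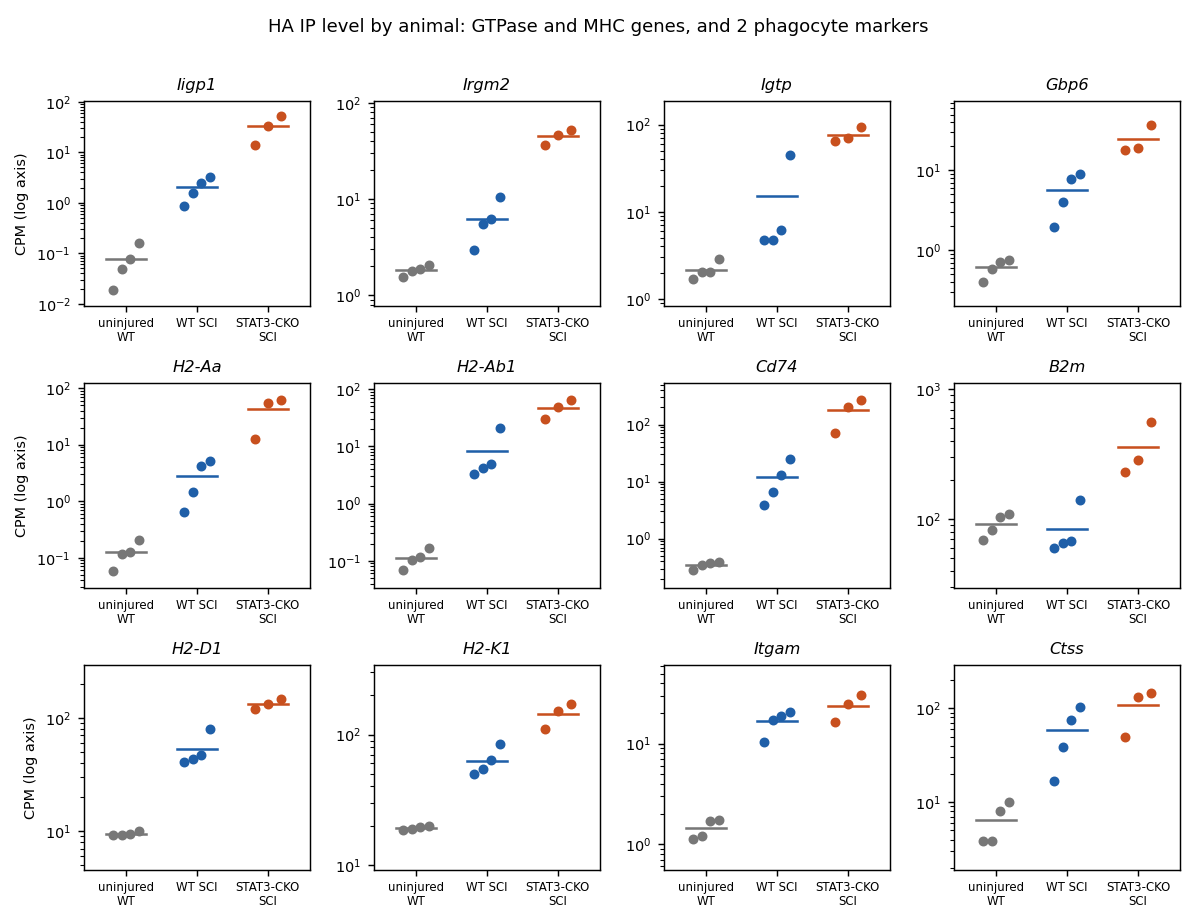
HA IP levels of 4 GTPase genes, 6 MHC genes and 2 phagocyte markers in TMM-scaled CPM on a log axis, with 1 point per animal and a line at the group mean. The GTPase and MHC genes are higher in all 3 STAT3-CKO SCI than in all 4 WT SCI animals, while the phagocyte markers Itgam and Ctss overlap between the injured groups.

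Class II genes are also made by immune cells, so their markers are set beside them. Of 20 microglia and macrophage markers 0 were called (edgeR, 0 higher and 0 lower at an unadjusted p under 0.05, 0 higher and 0 lower by DESeq2), with a median of 0.10. The integrin gene Itgam, a marker of myeloid cells, stood at 10.4, 17.1, 18.7 and 20.7 CPM in WT SCI and 16.3, 30.5 and 24.6 CPM in STAT3-CKO SCI (0.50 ± 0.34, adjusted p = 0.483). The protease gene Ctss, which phagocytes use to trim the invariant chain, stood at 16.6, 104, 75.2 and 38.6 against 49.7, 145 and 132 CPM (0.89 ± 0.49, adjusted p = 0.371). Both overlapped between groups. Of 14 dendritic cell and neutrophil markers 4 could be tested and 0 were called (edgeR, 1 higher and 0 lower at an unadjusted p under 0.05, 0 higher and 0 lower by DESeq2). The summed level of this list was 6.86 to 18.78 CPM in WT SCI and 18.85 to 36.2 CPM in STAT3-CKO SCI. Every STAT3-CKO animal thus lay above every WT SCI animal, but by a narrow gap. Of the 4 tested members, 2 had a positive and 2 a negative difference, from −1.14 (Zbtb46) to 1.47 (Itgax), with a median of −0.12. Of 17 lymphocyte markers 1 was abundant enough to be tested and was not called, and the B cell marker Ms4a1 had 0 counts in both groups. Summed lymphocyte markers reached 0.697 to 2.83 CPM in WT SCI and 1.402 to 4.67 CPM in STAT3-CKO SCI. The T cell gene Cd3e, which encodes a CD3 chain, had 12 counts over the 4 WT SCI libraries and 264 over the 3 STAT3-CKO libraries. For other T cell genes the counts were 14 and 25 for Cd4, 5 and 24 for Cd2 and 7 and 68 for Cd8a. They were 1 and 33 for Cd3g, 0 and 16 for Cd3d and 2 and 35 for Cd8b1. The B cell gene Cd79b had 2 and 64. These are unscaled counts, and the STAT3-CKO libraries held more counts outside Rn45s. A larger count there is therefore not by itself a higher level, and the smaller differences, such as those of Cd4 and Cd2, show no direction. The part of dendritic cells or lymphocytes in the differences of GTPase and MHC genes was not tested.

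Of 14 oligodendrocyte and myelin genes, edgeR called Mbp alone, lower (2 lower by DESeq2), and the 13 others ranged from −0.89 (Mobp) to 0.78 (Mal). No member of the neuron (0 of 16), oligodendrocyte precursor (0 of 10), ependymal (0 of 10), fibroblast and pericyte (0 of 11) or endothelial (0 of 4) lists was called by edgeR. At an unadjusted p under 0.05 these lists had 3, 0, 3, 1 and 0 members, and DESeq2 called 0 in each. Some pathways of scar and repair biology were without calls by edgeR with all libraries: TGF-beta and BMP pathway genes (0 higher and 2 lower at an unadjusted p under 0.05, 0 higher and 0 lower by DESeq2), collagen and fibrotic matrix genes (2 higher and 4 lower at an unadjusted p under 0.05, 2 higher and 2 lower by DESeq2) and cell cycle genes (1 higher and 0 lower at an unadjusted p under 0.05, 1 higher and 0 lower by DESeq2). So were chemokines and cytokines (2 higher and 3 lower at an unadjusted p under 0.05, 0 higher and 2 lower by DESeq2) and glycolysis genes (1 higher and 1 lower at an unadjusted p under 0.05, 0 higher and 0 lower by DESeq2). Leaving out 1 WT SCI animal gave 1 call in the TGF-beta list (lower, without 9596), 1 to 2 in the collagen list (1 higher and 1 lower without 9935, 1 higher without 9843) and 1 higher in the chemokine list (without 9874 or 9843).

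Flow-through of the same injured cords gave few calls. Of 12685 genes tested, 15 were called (0.118%), 11 higher (0.0867%) and 4 lower (0.0315%) in STAT3-CKO SCI. The 4 lower ones were Gfap, Serpina3n, A2m and Nudt6, all of them lower in HA IP as well. Gfap stood at 390.3, 297, 316 and 357 CPM in WT SCI flow-through and 82.03, 64.02 and 39.1 CPM in STAT3-CKO SCI flow-through (−2.47 ± 0.31, adjusted p = 0.000105). Serpina3n stood at 270.1, 291, 274 and 389 against 63.2, 56.7 and 49.3 CPM (−2.45 ± 0.30, adjusted p = 0.000105), and A2m at 21.7, 27.1, 30.2 and 46.7 against 3.35, 2.05 and 3.48 CPM (−3.41 ± 0.58, adjusted p = 0.0156). Flow-through can hold astrocyte RNA that was not pulled down, and its CPM stand on a scale of their own. Among the higher ones was Cd74 (2.21 ± 0.41, adjusted p = 0.0245), at 15.8, 78.2, 54.6 and 32.4 against 79.5, 246 and 318 CPM. The others, named because the count is small, included the neuronal genes Snap25 (1.58 ± 0.29), a synaptic vesicle fusion protein, and Penk (1.74 ± 0.32), an opioid precursor. Summed neuron markers moved with them, at 504 to 1046 CPM in WT SCI flow-through against 1169.8 to 1687 CPM without STAT3, and their part was not tested. Stat3 itself did not pass in flow-through (−0.66 ± 0.37, adjusted p = 0.441). With 91626 to 615302 counts outside ribosomal genes in WT SCI flow-through, Timp1 (−4.33 ± 1.09, adjusted p = 0.113) and Hspb1 (−3.61 ± 0.79, adjusted p = 0.0646) did not pass either. Leaving out animals 9843, 186, 531 or 270 lowered the 15 calls to 5, 3, 3 and 2, and leaving out animal 9596 raised them to 29. Gfap and Serpina3n stayed called in every such fit. A2m lost its call without animal 186, 531 or 270, Cd74 without 9935, 9843, 531 or 270, and Nudt6 without 9874, 9843, 9596, 186, 531 or 270.

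**Figure D5:**
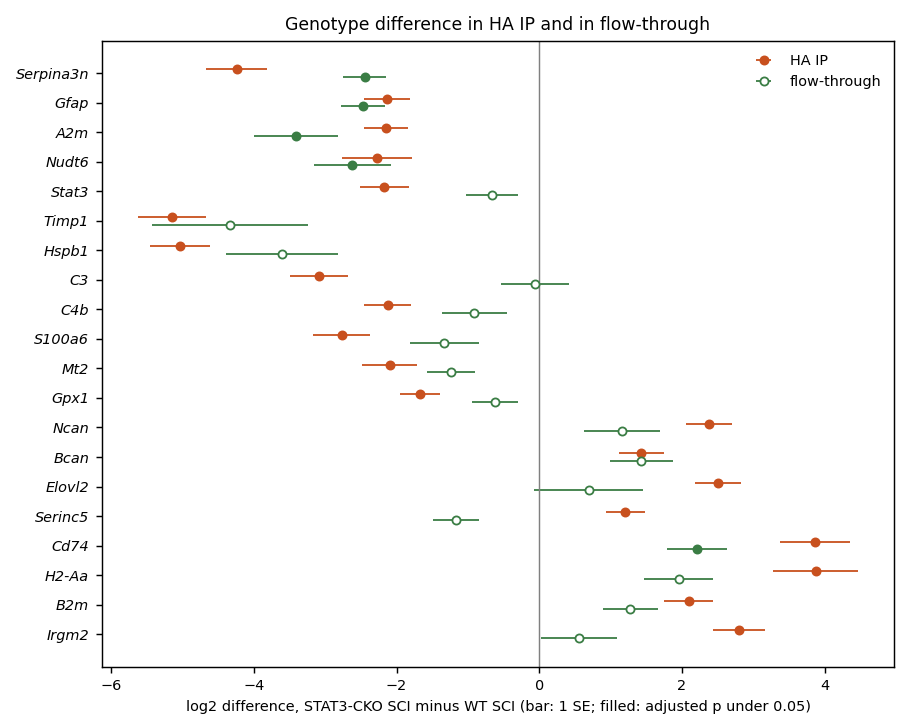
Log2 difference between STAT3-CKO SCI and WT SCI in HA IP and in flow-through for 20 named genes, with bars of 1 SE and filled points where the adjusted p within that fraction is under 0.05. Gfap and Serpina3n are below 0 and called in both fractions, whereas C3 is at −3.08 in HA IP and −0.06 in flow-through.

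Whether the genotype difference itself differed between fractions was tested over the 14 injured libraries with animal as a block. Of 13090 genes 6 were called (0.0458%), 2 with a positive (0.0153%) and 4 with a negative difference (0.0306%), among them Serpina3n, C3, Cd74 and Serinc5. C3 was lower in HA IP (−3.08 ± 0.41) and was not called in flow-through, where it stood at 13.8, 17.8, 22.1 and 6.13 CPM in WT SCI and 8.37, 15.5 and 17.7 CPM in STAT3-CKO SCI (−0.06 ± 0.48), a difference between fractions of −2.99 ± 0.48 (adjusted p = 0.00927). Serpina3n fell more in HA IP than in flow-through, by −1.89 ± 0.30 (adjusted p = 0.00927). Cd74 was higher in both fractions and more so in HA IP (1.81 ± 0.32, adjusted p = 0.0342). Serinc5, a membrane protein that restricts retroviruses, was at 30.3, 18.1, 22.5 and 34.6 CPM in WT SCI and 62.4, 66.8 and 53.3 CPM in STAT3-CKO SCI HA IP (1.21 ± 0.28, adjusted p = 0.0366) and pointed down in flow-through (−1.17 ± 0.32, adjusted p = 0.128), which gave 2.43 ± 0.37 between fractions (adjusted p = 0.00927). Stat3 did not pass this test (−1.43 ± 0.51, adjusted p = 0.582). Without the block the test called 0 genes (404 at an unadjusted p under 0.05; DESeq2 was not run here). Leaving out animal 531 or 270 gave 0 calls, animal 186 gave 12 and animal 9596 gave 15. C3 also lost its call without animal 9874 and Cd74 without animal 9843. In HA IP, the call of Serinc5 was lost without animal 9874, 9843, 186, 531 or 270.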

How the data were processed

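The authors deposited whole-number read counts per gene for 24060 gene rows, and, per the file headers, log2 fold changes, p-values and false discovery rates of their own. The submitters' processing notes name CASAVA 1.8.2, edgeR and mm10. Which aligner, counter, annotation and strand setting were used is not given in the sources used here. Overlapping and antisense genes may therefore share reads. Of 27 symbols turned into dates, accessions restored 25. A further 132 per-sample columns went unused. Animals of a group always differed beyond counting noise (chi-square per degree of freedom at least 4.68).

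Groups come from the labels and animal numbers from the sample titles. The 11 HA IP libraries of 3 groups entered 1 fit, so that they share 1 estimate of spread per gene: filterByExpr, TMM, and the two-sided quasi-likelihood test of edgeR 4.0.16 in R 4.3.3 with Benjamini-Hochberg adjustment. Flow-through was fitted likewise. Each SE was derived from the test, as the absolute log2 difference divided by the square root of its F statistic. The difference between fractions used the 14 injured libraries, where both fractions of an animal share its tissue, which is why animal was a block. DESeq2 1.42.0, other scalings, thinning, the Rn45s covariate and leaving out each animal were alternatives. On simulated counts for 14422 genes, the test called 90% of 100 genes changed 4-fold and 100% of 100 changed 8-fold in the HA IP comparison, and 9 of 199 calls were unchanged genes. The changed genes all had a mean log2 CPM above 3, so these shares do not extend to lower genes. Counts were drawn gene by gene, without a shift common to the genes of an animal such as the Rn45s share could bring. The share of unchanged genes among calls may therefore be larger in the real libraries.

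The 44 gene lists, their members and the genes to name were chosen with earlier results of these data known. The naming rule took up to 20 genes per direction of largest change among called genes whose mean log2 CPM reached 3, with no overlap between groups, up to 4 called members per list and direction, and fixed markers; not all are given values here. Gpr56, Zfp81, Penk, Gbp4, Tgtp2, Acsl3, Acsl6, Acat1, Prelp, Igfbp5, Serinc5, Cd3e, Cd3g, Cd3d, Cd4, Cd2, Cd8a, Cd8b1, Cd79b and the genes at the ends of list ranges were named after their values were seen. Values of a few genes are not reported here. Coordinates are from GENCODE vM21 (GRCm38, the assembly that mm10 names). Promoters are from RefSeq (GRCm38.p6), matched by gene ID, then symbol, for 11624 of 14764 genes tested.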

Additional observations from a re-analysis of the deposited data

Results flagged for a closer look

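Of 93 levels compared over the 4 WT SCI HA IP libraries, 11 had 1 animal far from the other 3. The rule is made for normal values, and levels of 1 animal are not independent. The count of 11 is therefore not set against chance. Animal 9874 stood apart in Tgm1 (42.5 against 4.89 to 9.59 CPM), H2-Ab1 (20.9 against 3.26 to 4.88 CPM), B2m (142 against 59.5 to 68.1 CPM), Ly6a (9.73 against 0.872 to 2.28 CPM) and H2-Eb1 (10.3 against 1.303 to 2.13 CPM). Animal 9935 stood apart in Vim (91.9 against 161 to 173 CPM) and Igtp (44.6 against 4.71 to 6.22 CPM). Animal 9843 stood apart in Trf (921 against 104 to 208 CPM) and Ahnak (46.9 against 14.3 to 16.9 CPM). Animal 9596 stood apart in Fbxw9 (134 against 8.02 to 15.6 CPM). Gbp8 had its only WT SCI count in animal 9596 (0.0686 CPM). Animal 9874 was thus the highest WT SCI animal in B2m, Ly6a and the class II genes, and without it the calls of B2m, H2-Ab1 and Ly6a were kept.

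The genotype difference was unlike between HA IP and flow-through, by the test of that difference, for Serpina3n (−1.89), C3 (−2.99), Cd74 (1.81) and Serinc5 (2.43, all on the log2 scale, HA IP minus flow-through).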

How the results depend on the processing

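Among the 73 called genes given values above, every alternative kept the direction of the HA IP difference. Of 1016 results of a gene under an alternative, 764 kept their call and 252 lost it, and 4 genes (Timp1, Hspb1, Serpina3n and Elovl2) kept it under all of theirs. The 171 calls became 177 with RLE scaling, 188 without ribosomal genes, 251 with no filter, 156 thinned to equal depth, 36 with only the 7 injured libraries, 917 with DESeq2 (421 higher, 496 lower) and 7 with the Rn45s covariate. RLE scaling turned the split of 88 higher and 83 lower into 79 and 98, and the 7 libraries gave 11 and 25. Of the 171 genes, 117 stayed called when thinned and 36 with only the 7 libraries. Among the genes given values, the 7 libraries kept 29 calls and lost 43. Lost calls included Socs3, Sbno2, Cntfr, Tagln2, Ptx3, Chil1, Mbp, S100b, S100a13 and S100a16. Bcan, Sparcl1, Gabra2, Heyl, Lrp4, Igtp, Gbp6, Tgtp2, Ly6a, H2-Ab1, H2-D1 and H2-K1 were lost as well. Leaving out 1 animal gave 39 to 343 calls. The 22 lists with a called member became 4 with the covariate. Flow-through calls ranged from 2 to 29 without 1 animal. For the difference between fractions, both libraries of an animal come from 1 cord, so animal was a replicate block; no replicate block gave 0 calls against 6, and leaving out 1 animal gave 0 to 15. The difference in Rn45s share of −19.4 percentage points ranged from −27.1 to −8.56 without 1 animal. The HA IP groups hold different animals, so no pairing exists there. The cause of the changed counts was not tested. Depth outside ribosomal genes was lowest in WT SCI animal 9935, where 3 counts equal 0.978 CPM on the scale used for levels, so lower levels there rest on fewer counts than that.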

Other observations

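Acsl3, Acsl6 and Acat1, chosen after their values were seen, were also called higher; they stand for no list. Acsl3, which activates long-chain fatty acids, stood at 36.5, 16.97, 34.2 and 31.4 CPM in WT SCI, 143, 48.9 and 94.9 CPM in STAT3-CKO SCI and 188 ± 25.3 CPM in uninjured cord (1.69 ± 0.33, adjusted p = 0.0162). Acsl6, of the same family, stood at 8.798, 15.5, 3.49 and 7.27 against 26.6, 24.5 and 32.8 CPM, with 113 ± 5.86 CPM in uninjured cord (1.67 ± 0.35, adjusted p = 0.0237). Acat1, a mitochondrial enzyme of ketone and isoleucine use, stood at 11.4, 5.995, 10.5 and 13.8 against 41.5, 47.2 and 26.3 CPM, with 39.3 ± 7.75 CPM in uninjured cord (1.88 ± 0.32, adjusted p = 0.00589). In all 3 the injured groups did not overlap. Acat1 in STAT3-CKO SCI differed from uninjured by −0.04 ± 0.31 (adjusted p = 0.963), and Acsl6 was still lower (−2.02 ± 0.36, adjusted p = 0.000754). The calls of Acsl3 and Acsl6 were lost without animal 186 or 270, and those of Acsl6 and Acat1 without animal 531.

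Prelp and Igfbp5, chosen in the same way, were called lower. Prelp, a basement membrane proteoglycan, stood at 39.1, 40.7, 23.4 and 23.5 CPM in WT SCI, 4.98, 5.47 and 13.1 CPM in STAT3-CKO SCI and 29.2 ± 8.16 CPM in uninjured cord (−1.99 ± 0.39, adjusted p = 0.0162), and so lay below uninjured without STAT3 (−1.88 ± 0.38, adjusted p = 0.00269). Igfbp5, a binding protein for insulin-like growth factors, stood at 107, 133, 46.6 and 79.7 against 31.3, 33.8 and 27.5 CPM, with 30.04 ± 4.24 CPM in uninjured cord (−1.57 ± 0.32, adjusted p = 0.0214). The calls of Prelp and Igfbp5 were lost without animal 186 or 531, and that of Igfbp5 without animal 270.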
